A study of Mus musculus with 24 samples.

Results

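The hearts described here were labelled Acadl KO / Acadvl Het and were set against hearts labelled wild type for both genes. They were chosen by their genotype labels alone, 5 and 4 libraries, which makes 9 of the 24 libraries in the series. All came from male mice of 14 weeks on chow, on a mixed background that was for the most part C57BL/6N with a contribution of 129. The other Acadl KO group, with both Acadvl alleles (4 libraries), served as a second reference, since it differs from the first group in the Acadvl label only. The labels do not name the alleles, the promoters or the cells in which the genes were inactivated. No label ties each library to its own mouse; the p-values therefore cover the spread between libraries, which may be technical.

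The acyl-CoA dehydrogenase for long chains is the product of Acadl, and that for very long chains the product of Acadvl. Each starts the breakdown of fatty acids in the mitochondrial matrix, the main source of fuel for the heart. Cells that lack amino acids, or whose mitochondria are impaired, can phosphorylate the translation factor eIF2-alpha. General translation then slows while the transcription factor ATF4 is made, which drives genes for amino acid supply, tRNA charging and stress hormones. This programme is called the integrated stress response. PPAR-alpha and NRF2 are other transcription factors that respond, the first to fatty acids and the second to oxidants and reactive lipids.

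The 9 libraries held 34377708 to 51743114 counts. Both sides were nearly free of liver RNA: the hepatocyte gene Alb stood at 0.101 to 1.04 CPM (counts per 1000000 counts of the library, after TMM scaling) in the Acadl KO / Acadvl Het libraries and at 0.0669 to 3.05 CPM in wild type. In the other Acadl KO group, libraries 2 and 3 held 61.7 and 13.6 CPM. RNA was isolated in 2 batches, and both hold both groups: libraries 4 and 5 of the first group and wild-type libraries 3 and 4 were in batch 1, and the remaining 5 in batch 2. The 4 wild-type libraries carry only 2 leading title numbers (26 and 38, each on 2 libraries), and libraries 4 and 5 of the first group share the number 23. The labels do not explain that number, and libraries that share one may not be independent. The heart genes were in place, with a summed level of the 14 ventricular sarcomere genes of 96210 to 112100 CPM against 94760 to 104900 CPM in wild type. On the first principal component, which took 54.129% of the variance of the 9 libraries, the groups lay apart, with library 4 of the first group nearest to wild type.

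The targeted genes were read first. Acadl (chromosome 1, 66830839 to 66863309, mm10) stood at 1929, 1892, 1933, 1855 and 1827 CPM in libraries 1 to 5 labelled Acadl KO / Acadvl Het. In wild type it stood at 1412, 1324, 1369 and 1325 CPM. Every library labelled Acadl KO was above every wild-type library, so the label was not seen as a loss of Acadl reads (log2 difference 0.47, SE 0.06, edgeR adjusted p = 7.787e-06). Counts over the whole gene do not show which exons were read, so the directions given below depend on the labels, which Acadl reads did not check. Acadvl (chromosome 11, 70010183 to 70015428, mm10) stood at 1645, 1163, 1466, 1374 and 1500 CPM against 1588, 1550, 1577 and 1593 CPM in wild type. Library 1 was above all of wild type and the other four below it, and the difference from wild type was not called (-0.14, SE 0.11, edgeR adjusted p = 0.3096). Against Acadl KO / Acadvl wt hearts, at 2222, 2429, 1915 and 1893 CPM, all 5 libraries were lower, with no overlap (-0.57, SE 0.11, unadjusted p = 4.117e-05). After adjustment over all genes edgeR did not call that difference (adjusted p = 0.1665), whereas DESeq2 did.

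**Figure D1:**
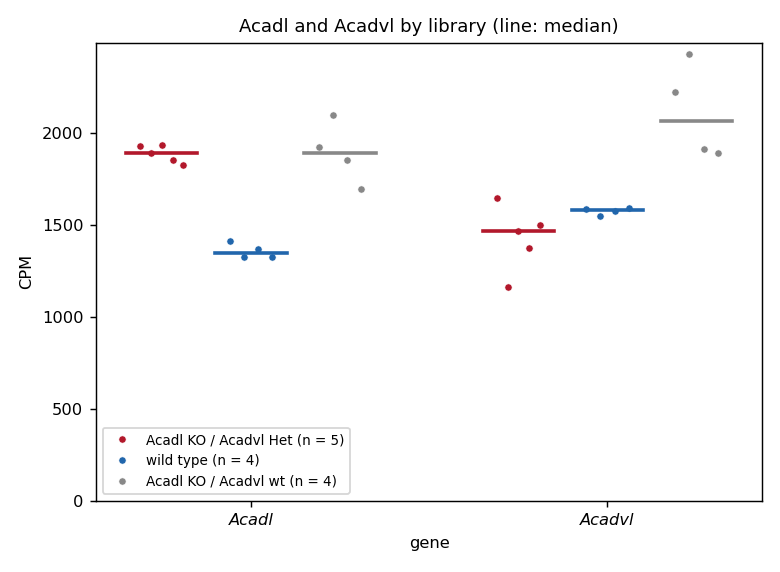
Levels of Acadl and Acadvl in CPM in each library of 3 genotypes; points are libraries and lines are group medians. Acadl is higher in both groups labelled Acadl KO than in wild type, and Acadvl in Acadl KO / Acadvl Het hearts (1163 to 1645 CPM) overlaps wild type (1550 to 1593 CPM).

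A large share of the genes tested differed from wild type, so counts in gene lists are read against that background. With edgeR's quasi-likelihood test at an adjusted p under 0.05, 3470 of 15804 genes were higher (22.0%) and 3490 lower (22.1%). All 5 libraries lay above all 4 of wild type for 17.8% of genes and below them for 18.1%. Most changes were small: 482 of the higher and 789 of the lower genes passed 1 on the log2 scale, and 19 and 24 passed 3. The median difference over all genes tested was -0.02. Lists are given below by their counts and median, without a test of the list.

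ATF4 and integrated stress response targets held the strongest rises. Of 30 genes tested 28 were higher and 0 lower, with a median log2 difference of 1.45, and for 25 the groups did not overlap. Fgf21, a hormone secreted by stressed tissues, had 242, 63, 167, 206 and 29 counts in the Acadl KO / Acadvl Het libraries and 4, 2, 3 and 2 counts in wild type. The ratio of the summed rates was 66.1, with a 95% exact interval of 36.7 to 133 for counting error alone (edgeR log2 difference 5.95, SE 1.12, adjusted p = 0.000286). Library 5 was the lowest of the 5, and still above each wild-type library.

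Asns, which makes asparagine, stood at 45.8, 17.2, 25.9, 31.5 and 22.1 CPM against 2.13, 2.05, 1.22 and 1.44 CPM. The lowest labelled knockout library was thus well above the highest of wild type (log2 4.05, SE 0.42, edgeR adjusted p = 1.058e-06). Gdf15, a stress cytokine that acts on appetite through the hindbrain, stood at 42.8, 15.2, 18.6, 49.1 and 9.90 CPM against 2.06, 1.58, 1.74 and 1.495 CPM (log2 3.98, SE 0.60, edgeR adjusted p = 4.778e-05). Libraries 1 and 4 were high and library 5 low, without overlap with wild type. Trib3, a pseudokinase that ATF4 induces, was at 73.3, 46.2, 69.5, 77.2 and 15.1 CPM against 5.47, 4.15, 4.96 and 6.52 CPM (3.34, SE 0.53). Again library 5 was lowest, here far below the rest of its group. Chac1, which breaks down glutathione, had the same order of extremes, with 90.4 CPM in library 4, 22.1 CPM in library 5 and 6.46 to 13.3 CPM in wild type (2.76, SE 0.46).

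Atf4 itself (chromosome 15, 80255184 to 80257545, mm10) stood at 325, 279, 305, 264 and 229 CPM against 79.1, 66.3, 66.4 and 64.2 CPM (log2 1.99, SE 0.20, edgeR adjusted p = 4.595e-07). Each library of the labelled knockout was far above each of wild type, with library 1 highest and library 5 lowest. Ppp1r15a, the phosphatase subunit that reverses eIF2-alpha phosphorylation, was at 120 to 166 CPM against 49.4 to 62.9 CPM (1.34, SE 0.18). Of the 16 kinases, phosphatase subunits and stress transcription factors in that list, 10 were higher and 1 lower (median 0.32).

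**Figure D2:**
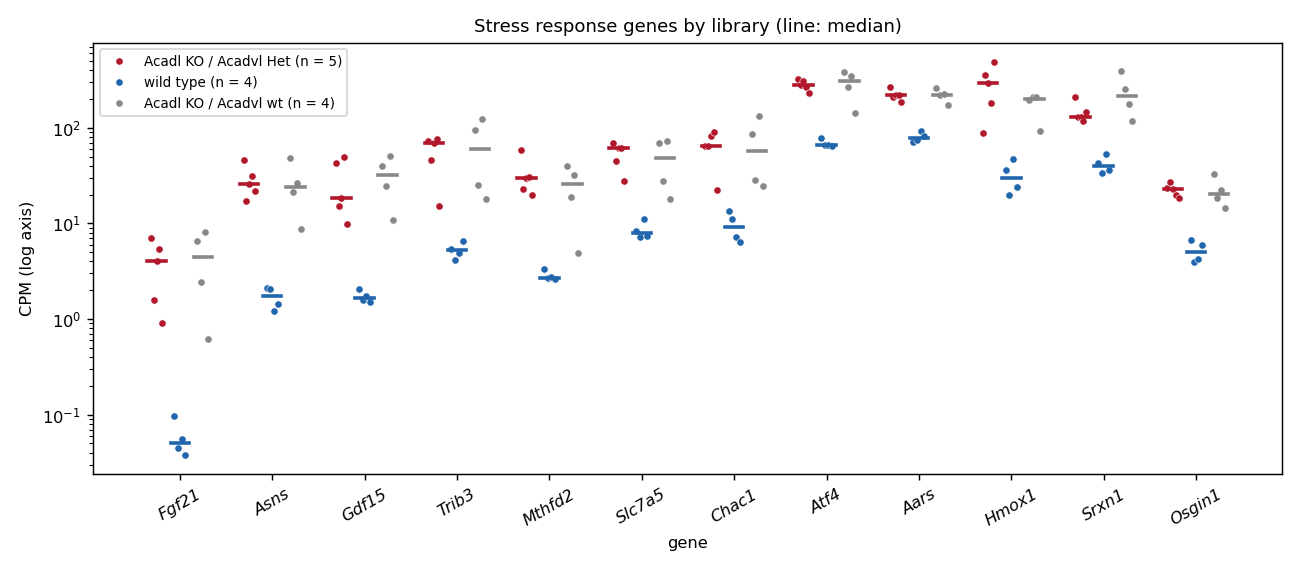
Levels in CPM on a log axis of 12 stress response genes in each library of 3 genotypes; points are libraries and lines are group medians. For each of the 12 genes all 5 Acadl KO / Acadvl Het libraries lie above all 4 of wild type, and the spread within the 5 is widest as a ratio for Fgf21 (0.906 to 6.99 CPM) and Hmox1 (89.2 to 484 CPM).

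Many genes for amino acid supply and tRNA charging rose with them. Aminoacyl-tRNA synthetases of the cytosol attach each amino acid to its tRNA, and 17 of 20 were higher and 0 lower (median 0.75). Aars, for alanine, stood at 269, 210, 221, 218 and 187 CPM against 71.3, 74.8, 91.7 and 81.8 CPM (log2 1.44, SE 0.12, edgeR adjusted p = 2.966e-08). The tyrosine enzyme Yars (1.32, SE 0.14), the cysteine enzyme Cars (1.28, SE 0.17), Iars (1.17) and Sars (1.03) rose too, each without overlap with wild type. The mitochondrial synthetases did not move as a block, with 6 of 17 higher and 2 lower (median 0.08).

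Of 19 amino acid transporters of the cell surface 12 were higher and 2 lower (median 0.65). Slc7a5, which carries large neutral amino acids, was at 68.6, 44.9, 60.9, 61.2 and 27.5 CPM against 8.31, 7.25, 11.0 and 7.46 CPM (log2 2.57, SE 0.34, edgeR adjusted p = 9.824e-06). Its partner subunit Slc3a2 was at 115 to 180 CPM against 41.3 to 48.9 CPM (1.60, SE 0.19). Both subunits of the exchanger thus rose in every library.

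Enzymes of serine and one-carbon folate metabolism were 8 of 16 higher and 2 lower (median 0.32). Mthfd2, the mitochondrial folate enzyme, stood at 58.1, 22.8, 30.1, 30.5 and 19.8 CPM against 3.31, 2.70, 2.73 and 2.61 CPM (log2 3.40, SE 0.39, edgeR adjusted p = 2.548e-06). Library 1 stood far above the other four. Of 14 asparagine, proline and transaminase enzymes 6 were higher and 1 lower (median 0.07). Lists share members, and Asns, Mthfd2, Phgdh and Pycr1 are also in the ATF4 list, as are Sesn2 and Herpud1 below. The serine enzymes Psat1 (1.47, SE 0.30) and Phgdh (1.43, SE 0.30) and the proline enzymes Aldh18a1 (1.95, SE 0.30) and Pycr1 (1.87, SE 0.32) were higher as well. So was Sesn2, a leucine sensor that restrains mTORC1, at 9.59 to 28.9 CPM against 3.36 to 4.37 CPM (2.35, SE 0.39). Ddit4l, another gene of the mTORC1 brake list, fell to 0.388 to 0.604 CPM from 1.25 to 4.28 CPM (-2.33, SE 0.40).

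ATF4 binds with C/EBP partners at a composite site, the amino acid response element, here searched as TGATGNAAT on both strands in the 250 bases before each gene's start (RefSeq promoters, GRCm38.p6). Of all genes tested 11668 had a promoter in that table and 0.531% of them held a match. Among the ATF4 list 3 of 27 held one (Nupr1, Fgf21 and Pycr1) and among the synthetases 2 of 12 (Aars and Gars). All 5 of these genes were called higher, but so were 28 of 30 ATF4 targets and 17 of 20 synthetases. Over all genes with a promoter in that table, 0.743% of those called higher and 0.432% of those called lower held a match. Stretches around the match are shown 5′ to 3′ on each gene's strand, with the match in capitals, because these genes moved together. In all but Pycr1 the match is on the reverse strand. For Pycr1 the RefSeq start does not match the gene's start in the annotation used for the counts, so its distance holds for the RefSeq start.
Fgf21 (chr7:45615577-45615675, minus strand, 140 bases before the start): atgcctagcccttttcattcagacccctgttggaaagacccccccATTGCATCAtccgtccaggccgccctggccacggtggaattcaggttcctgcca
Aars (chr8:111033684-111033782, plus strand, 113 bases before the start): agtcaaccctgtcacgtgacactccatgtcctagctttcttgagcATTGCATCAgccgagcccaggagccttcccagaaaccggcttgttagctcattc
Nupr1 (chr7:126625528-126625626, minus strand, 111 bases before the start): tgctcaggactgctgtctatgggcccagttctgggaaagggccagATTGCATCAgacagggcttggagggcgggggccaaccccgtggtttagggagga
Pycr1 (chr11:120643798-120643896, minus strand, 103 bases before the start): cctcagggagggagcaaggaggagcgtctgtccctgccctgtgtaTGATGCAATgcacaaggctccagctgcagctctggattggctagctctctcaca
The match in Gars lies closest to the start of its gene, 31 bases before it. Nupr1, a small stress-induced chromatin protein, rose by 0.84 (SE 0.16) and Gars, the glycine synthetase, by 1.01 (SE 0.14). A match describes letters in this window and not binding. Most ATF4 targets, Asns and Trib3 among them, had no such letters in this window.

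NRF2 targets formed a second group of rises, with 15 of 23 higher and 1 lower (median 0.63). Hmox1, which breaks down haem, stood at 89.2, 359, 297, 180 and 484 CPM against 36.4, 19.6, 46.7 and 24.1 CPM (log2 3.18, SE 0.58, edgeR adjusted p = 0.0002577). Library 5 was highest and library 1 lowest, and all 5 were above wild type. The oxidant-defence enzymes Srxn1 (118 to 212 CPM against 33.4 to 52.8 CPM, log2 1.79, SE 0.33) and Txnrd1 (173 to 233 CPM against 74.0 to 102 CPM, log2 1.27, SE 0.20) were higher without overlap. Osgin1 (2.07, SE 0.23) and Gsta1 (2.21, SE 0.35) rose too, though Gsta1 has close relatives that can share its reads. The antioxidant response element that NRF2 reads, searched as TGACNNNGC, matched 4 of 19 NRF2 promoters in the table against 14.0% of all, so a match of these looser letters is common.

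The 5 Acadl KO / Acadvl Het libraries were not alike. Taking each library's CPM over the wild-type mean, the median over the 30 ATF4 targets was 1.71, 1.26, 1.45, 1.49 and 0.83 on the log2 scale for libraries 1 to 5. For the synthetases it was 1.17, 0.64, 0.72, 0.77 and 0.46. Library 1 was thus highest and library 5 lowest for both lists. Library 5 was instead the highest for Hmox1, for Ffar4, a receptor for long-chain fatty acids, for Fabp4 and for Lox, the enzyme that cross-links collagen. Ffar4 had 65, 53, 64, 15 and 162 counts against 1, 1, 3 and 4 in wild type (ratio of summed rates 41, 95% exact interval 21.4 to 90.4 for counting error, edgeR log2 difference 5.27, SE 1.05). Lrrc10b was at 5.08, 2.24, 4.63, 2.16 and 10.4 CPM against 0.201 to 0.364 CPM (3.92, SE 0.77). Libraries 4 and 5 were of 1 RNA isolation batch and lay at opposite ends for Ffar4, Lrrc10b, Trib3 and Chac1. Haemoglobin message was also highest in library 5, with Hba-a1 at 1150 CPM against 552 to 676 CPM in the other four, and its part in these differences was not tested.

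**Figure D3:**
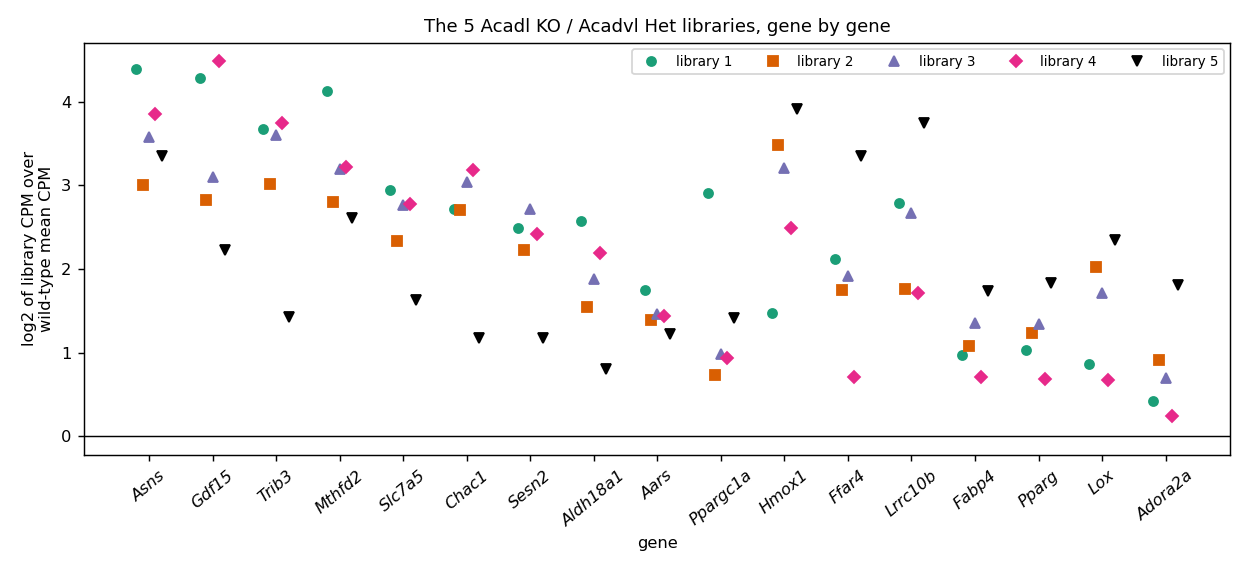
Log2 of each Acadl KO / Acadvl Het library's CPM over the mean CPM of wild type, for 17 genes; each symbol is 1 library and the line at 0 is the wild-type mean. Library 5 (black) is lowest for Gdf15, Trib3, Mthfd2, Slc7a5, Chac1, Sesn2, Aldh18a1 and Aars and highest for Hmox1, Ffar4, Lrrc10b, Fabp4, Pparg, Lox and Adora2a, and library 1 stands alone for Ppargc1a.

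Most genes of fatty acid handling under PPAR-alpha rose. Of 26 PPAR-alpha targets 18 were higher and 2 lower (median 0.54). Plin5, which coats lipid droplets next to mitochondria, stood at 656, 621, 689, 675 and 718 CPM against 233, 239, 294 and 265 CPM (log2 1.37, SE 0.14, edgeR adjusted p = 6.195e-07). The 5 libraries were close to one another and far above wild type. Ehhadh, a peroxisomal enzyme, was at 90.2, 81.3, 63.2, 102 and 86.2 CPM against 38.4, 43.1, 40.8 and 33.7 CPM (1.12, SE 0.15). It had the largest rise in a list of 22 peroxisomal fatty acid oxidation genes that was split, with 8 higher and 5 lower (median 0.03). The thioesterases Acot2 (1.18) and Acot1 (1.06), which are near copies and may trade reads, and the uncoupling proteins Ucp2 (0.99) and Ucp3 (0.94) rose as well.

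Pdk4, the kinase that shuts pyruvate out of the citric acid cycle, was at 9140, 8674, 9021, 8597 and 8083 CPM against 5385, 4870, 4702 and 3843 CPM (log2 0.88, SE 0.16, edgeR adjusted p = 0.0002615). Pdp1, the phosphatase that opposes it, fell to 14.6 to 24.0 CPM from 30.5 to 41.1 CPM (-0.92, SE 0.19). The coactivator Ppargc1a stood at 1056, 234, 278, 269 and 377 CPM against 149, 132, 142 and 139 CPM (1.58, SE 0.37). Library 1 stood apart, and the groups did not overlap without it either. Among the nuclear receptors, Pparg (1.30, SE 0.21) and Ppara (0.84, SE 0.17) were higher, and of the 18 regulators in that list 10 were higher and 2 lower. The fatty acid carrier Fabp4, which capillary endothelium and fat cells make, was at 1152 to 2350 CPM against 638 to 790 CPM (1.22, SE 0.18). Of 8 adipocyte markers tested 2 were called, Pparg and Fabp4, and both were higher. The remaining endothelial markers went both ways, and with Fabp4 3 of 14 were higher and 4 lower. In bulk tissue, fewer cells of a type and less RNA per cell cannot be told apart.

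Of the 23 mitochondrial fatty acid oxidation enzymes and carriers 7 were higher, 2 lower and 14 not called (median 0.00, against -0.02 for all genes). Cpt1b, the gate for long-chain acyl groups, was at 1805, 1365, 1665, 1687 and 1529 CPM against 1087, 1115, 1085 and 1066 CPM (log2 0.56, SE 0.09). Slc25a20, the carnitine-acylcarnitine carrier, rose by 0.48 (SE 0.09). The acyl-CoA dehydrogenase relatives Acad12 (-0.72, SE 0.09) and Acad10 (-0.57, SE 0.11) fell, each below wild type in all 5 libraries. Oxidative phosphorylation subunits encoded in the nucleus stayed near wild type: 1 of 31 was higher and 0 lower (median 0.03). That call, Ndufb10 (0.20, SE 0.08), was lost when any 1 library other than Acadl KO / Acadvl Het library 2 or wild-type library 3 was left out (0.17 to 0.21).

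Of 20 genes for breakdown of the branched-chain amino acids leucine, isoleucine and valine, 8 were lower, 0 higher and 12 not called (median -0.13). Ppm1k, the phosphatase that switches on branched-chain ketoacid dehydrogenase, was at 71.6, 65.4, 75.2, 76.5 and 80.3 CPM against 171, 161, 121 and 134 CPM (log2 -0.99, SE 0.15, edgeR adjusted p = 4.783e-05). Even its lowest wild-type library was above the highest of the labelled knockout. Mut (-0.34) and Acadsb (-0.31) fell by less. Bdh1, which interconverts the main ketone bodies, went the other way, from 97.1 to 146 CPM to 229 to 484 CPM (1.79, SE 0.26).

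Genes of glucose uptake and glycolysis were higher more often than lower, 13 against 3 of 27 (median 0.16), and glycogen genes went both ways, with 7 of 23 higher and 6 lower. Phkg1, which encodes the catalytic subunit of phosphorylase kinase in muscle, stood at 3.64, 4.21, 6.48, 5.10 and 6.56 CPM against 69.9, 56.3, 58.6 and 59.9 CPM (log2 -3.55, SE 0.18, edgeR adjusted p = 3.062e-11). The 2 groups lay far apart with little spread in either. Ppp1r3b, a glycogen-targeting subunit of protein phosphatase 1, fell by 1.36 (SE 0.33). Pfkfb2, the heart form of the enzyme that makes fructose 2,6-bisphosphate, rose by 1.09 (SE 0.20) and the glucose transporter Slc2a1 by 0.71 (SE 0.20). The Slc2a1 call was lost within batch 1 (0.44, edgeR adjusted p = 0.162) and with libraries of a shared title number summed (0.73, edgeR adjusted p = 0.054). Irs2, an insulin receptor substrate, rose from 14.7 to 28.8 CPM to 74.8 to 132 CPM (2.07, SE 0.50), and the cell cycle inhibitor Cdkn1a from 95.7 to 199 CPM to 366 to 631 CPM (1.89, SE 0.33). They belong to a list of FOXO, insulin signalling and atrophy genes in which 7 of 19 were higher and 1 lower.

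Genes that build ribosomes rose, as did those that bring proteins into mitochondria. Of 22 nucleolar assembly factors 20 were higher and 0 lower (median 0.62). Rrp12 was at 172, 175, 182, 171 and 172 CPM against 51.0, 47.9, 70.7 and 50.4 CPM (log2 1.66, SE 0.19), and Gnl3 rose by 1.55 (SE 0.15). The 5 values of Rrp12 were nearly the same, unlike those of the ATF4 targets. Ribosomal proteins moved less, with 18 of 34 higher and 0 lower (median 0.21). Translation factors had 18 of 30 higher and 0 lower (median 0.26), led by the helicase Eif4a1 at 325 to 349 CPM against 153 to 193 CPM (0.96, SE 0.10). Of 20 mitochondrial import genes 12 were higher and 0 lower (median 0.36), among them Timm10 (1.06) and Tomm40 (0.73). Of 17 mitochondrial chaperones and proteases 10 were higher and 1 lower (median 0.37), with the co-chaperone Grpel2 at 1.33 (SE 0.14) and the chaperonin partner Hspe1 at 0.72 (SE 0.08). Chaperones of the endoplasmic reticulum did not rise with them: 2 of 19 genes were higher and 6 lower (median -0.15), with Herpud1 at 1.37 (SE 0.23) and Pdia4 at -0.92 (SE 0.17).

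**Figure D4:**
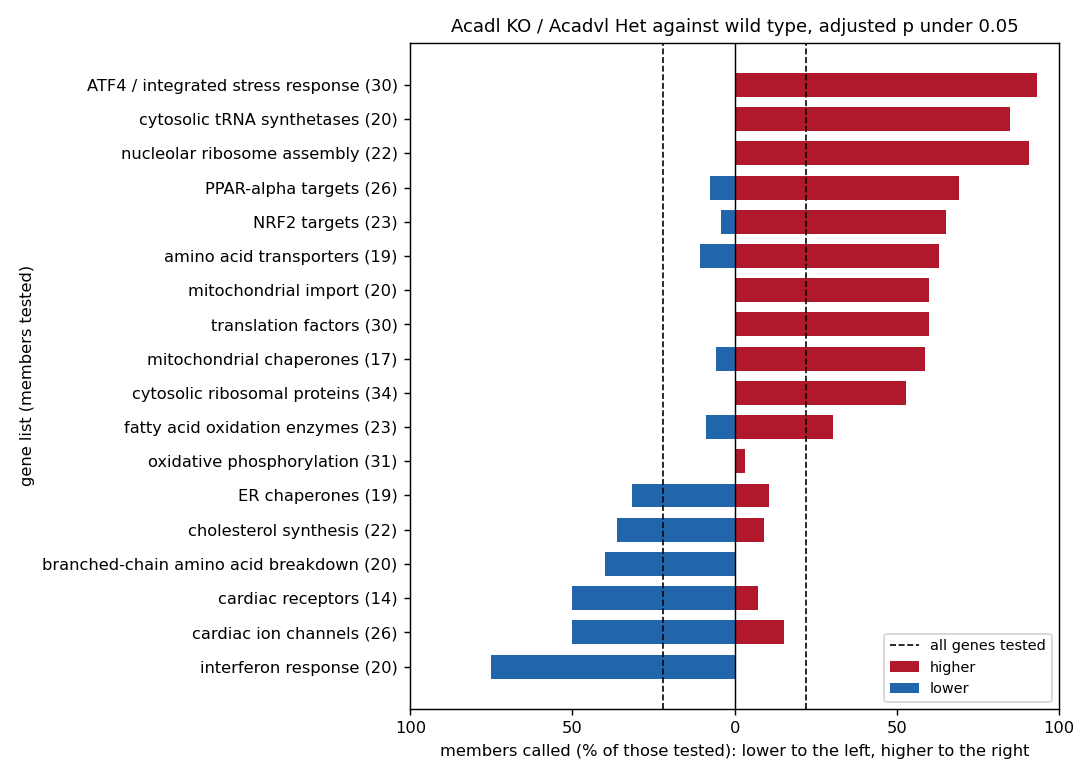
Share of the tested members of 18 gene lists called higher (right) or lower (left) in Acadl KO / Acadvl Het hearts against wild type; dashed lines mark the shares over all genes tested, 22.0% higher and 22.1% lower. The ATF4, synthetase and nucleolar lists reach furthest to the right and the interferon list furthest to the left.

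The gene with the largest fall by the naming rule was Aqp4, the water channel of muscle and glial membranes. It had 3, 2, 14, 3 and 11 counts in the labelled knockout and 369, 510, 485 and 665 counts in wild type. The ratio of the summed rates was 59.8 in favour of wild type, with a 95% exact interval of 42.4 to 87.1 for counting error (edgeR log2 difference -5.88, SE 0.34, adjusted p = 2.599e-10). Libraries 3 and 5 held most of the remaining counts. Another water channel, Aqp8, went the other way, from 0.958 to 1.38 CPM to 3.52 to 11.0 CPM (2.61, SE 0.42). Cacng6, a calcium channel gamma subunit, was at 0.0755 to 0.312 CPM against 2.97 to 3.39 CPM (-4.03, SE 0.33). Angpt1, a vessel growth factor that heart muscle secretes, was at 6.47, 10.8, 6.28, 8.12 and 2.53 CPM against 58.2, 49.0, 44.6 and 50.1 CPM (-2.89, SE 0.36). Cntn2, an adhesion protein of the conduction fibres, fell by 2.81 on the log2 scale (SE 0.34). B3galt2 (-3.81), Gal3st3 (-3.36), Itgb6 (-3.06), Ankrd63 (-3.01) and Pirt (-2.77) complete the genes with the largest falls, together with Phkg1 above and Sbk2 and Ankrd37 below. Their counterparts among the largest rises were Amica1 (3.15), Kcnc1 (2.96), a potassium channel, Lrrc52 (2.83) and Mctp2 (2.80).

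Ankrd37, a gene induced by hypoxia-inducible factor, fell to 0.126 to 0.437 CPM from 2.48 to 3.75 CPM (log2 -3.37, SE 0.39). Egln3, the oxygen-sensing hydroxylase that is itself a target, was at 9.39, 10.9, 12.1, 12.1 and 11.9 CPM against 43.7, 50.5, 46.4 and 46.5 CPM (-2.06, SE 0.14, edgeR adjusted p = 2.309e-09). Both genes were lower in every library. The list of hypoxia-inducible factor targets as a whole was split, with 6 of 20 higher and 7 lower (median -0.23), and Slc2a1, whose call was lost in the alternatives given above, is one of those called higher.

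Ion channels and receptors of the heart muscle cell were lower more often than higher. Of 26 channel genes 13 were lower and 4 higher (median -0.33), and of 14 adrenergic, muscarinic and adenosine receptors 7 were lower and 1 higher (median -0.51). Chrm2, the muscarinic receptor through which the vagus slows the heart, stood at 13.1, 15.4, 22.1, 15.2 and 11.5 CPM against 42.3, 43.0, 46.5 and 44.5 CPM (log2 -1.53, SE 0.14, edgeR adjusted p = 1.225e-07). The highest labelled knockout library was below the lowest of wild type. Kcnj5 and Kcnj3 form the potassium channel that this receptor opens. Kcnj5 was at 20.6, 19.4, 16.8, 21.2 and 9.69 CPM against 64.6, 74.5, 67.0 and 76.2 CPM (-2.01, SE 0.28), and Kcnj3 at 15.2 to 25.4 CPM against 50.7 to 85.0 CPM (-1.78, SE 0.20). Cacnb2, a subunit of the L-type calcium channel, was at 18.6 to 28.1 CPM against 56.6 to 70.4 CPM (-1.47, SE 0.17). The transient outward channels Kcnd2 (-1.32, SE 0.22) and Kcna4 (-1.84, SE 0.35) and the receptor Adra1b (-1.40, SE 0.14) were lower too. Adora2a, an adenosine receptor that vessels and leukocytes also carry, was the receptor that rose (0.96, SE 0.29), and library 5 held the most, at 60.5 CPM against 20.1 to 32.2 CPM in the other four. The calcium pump inhibitor Pln fell by 0.43 on the log2 scale (SE 0.09).

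Several of these genes are rich in the atria, and atrial markers varied widely among the libraries of both groups. Of 10 atrial markers 0 were higher and 2 lower, Kcnj3 and Stard10 (median -0.67). The atrial light chain Myl7 was at 5.23, 9.74, 25.1, 1.95 and 1.34 CPM against 7.33, 26.2, 5.94 and 16.7 CPM and was not called (-0.83, SE 0.81). Myl4 (-0.69, SE 0.79) and Sln (-1.14, SE 0.85) were not called either, though Myl4 was called within batch 1 (-2.41, edgeR adjusted p = 0.046). The part of atrial tissue in the channel and receptor results was not tested. Sbk2, a kinase rich in atria, was at 0.252 to 0.982 CPM against 4.29 to 7.82 CPM (-3.24, SE 0.26). Myl7, Myl4 and Sln were chosen after their values were seen.

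Of 20 interferon response genes tested 15 were lower, 0 higher and 5 not called (median -0.80). Oas2, which senses double-stranded RNA, stood at 11.6, 4.23, 11.8, 9.76 and 6.28 CPM against 20.7, 23.1, 24.4 and 24.6 CPM (log2 -1.36, SE 0.27, edgeR adjusted p = 0.0005439). Stat2, the transcription factor that carries the interferon signal, was at 9.75 to 14.8 CPM against 22.4 to 28.7 CPM (-0.996, SE 0.17). Neither gene overlapped between the groups. Ifi44 (-1.51, SE 0.39) and Mx2 (-1.03, SE 0.28) fell with them. Per library the list's median against wild type was -0.67, -0.60, -0.73, -0.61 and -1.05, so library 5 was lowest here as well. Of 15 macrophage and leukocyte markers 4 were higher and 1 lower, with a summed level of 298 to 452 CPM against 295 to 334 CPM. edgeR called 0 of 8 lymphocyte markers, whose summed level was 1.19 to 2.90 CPM against 1.99 to 3.19 CPM. The part of such cells in the interferon result was not tested.

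**Figure D5:**
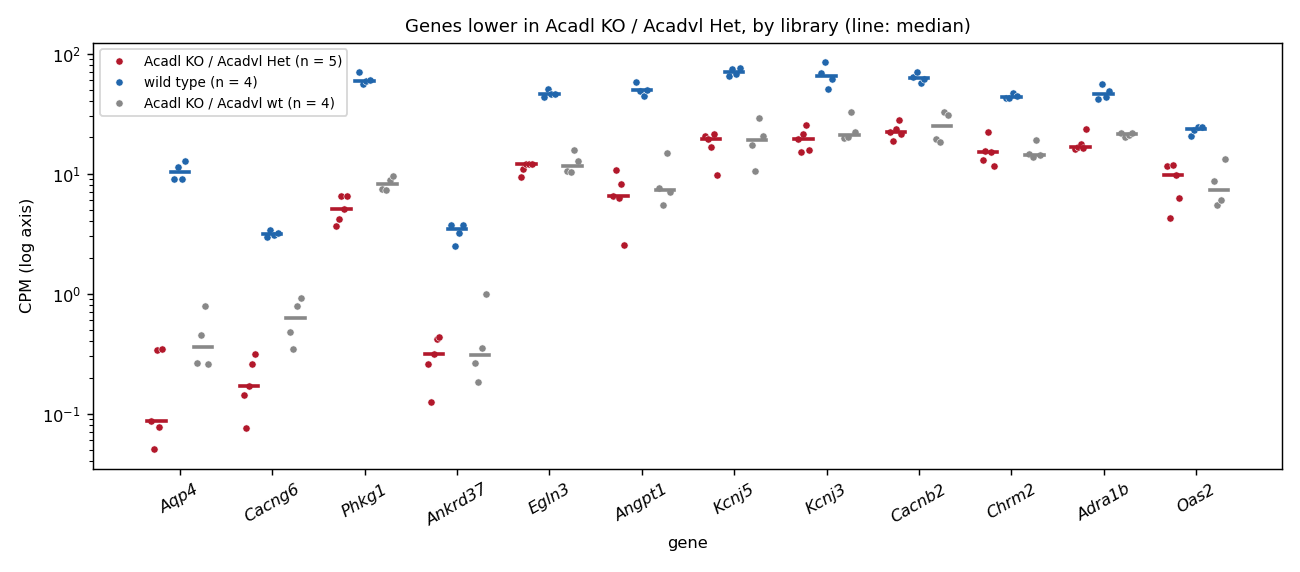
Levels in CPM on a log axis of 12 genes that were lower in Acadl KO / Acadvl Het hearts, in each library of 3 genotypes; points are libraries and lines are group medians. For each of the 12 genes the 5 libraries lie below all 4 of wild type, from Aqp4 (0.0504 to 0.344 CPM against 9.05 to 12.7 CPM) to Oas2 (4.23 to 11.8 CPM against 20.7 to 24.6 CPM).

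Other lists went both ways. Among 19 clock and output genes 8 were higher and 5 lower (median 0.31), beside 22.0% and 22.1% of all genes. Log2 differences in that list ran from -1.95 to 1.06. The clock output factor Hlf (-1.95, SE 0.24) and the clock gene Per3 (-1.33, SE 0.33) were among the 5 lower. Cholesterol synthesis genes were 2 of 22 higher and 8 lower (median -0.15), with Dhcr7 at -0.85 (SE 0.15). Of 17 cardiac stress and fetal genes 2 were higher, Gdf15 (also in the ATF4 list) and Acta1, and 3 lower. Acta1, skeletal actin re-expressed by stressed heart muscle, was at 599, 748, 409, 1354 and 863 CPM against 239, 317, 583 and 196 CPM (1.25, SE 0.42). Library 3 lay below wild-type library 3, so the groups overlapped. The call was lost without Acadl KO / Acadvl Het library 4 (0.92) or without wild-type library 1, 2 or 4 (1.07 to 1.23). Ankrd1, a stress-induced titin partner, was lower (-0.97, SE 0.33), a call lost without Acadl KO / Acadvl Het library 1 or 5 or wild-type library 1 or 3 (-0.87 to -0.76). Nppa, the atrial natriuretic peptide and a gene singled out after its values were seen, was at 1922 CPM in library 2 and at 131 to 343 CPM in the other four, against 172 to 359 CPM in wild type. Collagen and matrix genes were 8 of 23 higher and 3 lower (median 0.31), with Lox at 23.9, 54.0, 43.5, 20.9 and 67.5 CPM against 12.7, 8.43, 14.7 and 15.7 CPM (1.72, SE 0.39). Of 12 fibroblast markers 1 was higher and 2 lower.

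The neighbourhoods of the targeted genes were also read, since a deleted allele carries the flanking DNA of the strain in which it was made. Of 33 tested genes within 5 Mb of Acadl 5 were higher and 10 lower, and of 165 within 5 Mb of Acadvl 36 were higher and 45 lower. The shares lower, 10 of 33 and 45 of 165, compare with 22.1% of all genes. Myl1, a skeletal muscle light chain near Acadl, was at 4.19, 5.87, 4.44, 7.29 and 5.47 CPM against 33.4, 31.9, 29.5 and 32.5 CPM (log2 -2.55, SE 0.19). The 2 groups were tight and far apart. Myl1 is also 1 of 9 skeletal muscle markers tested, of which 4 were lower and 1, Acta1, higher (median -0.22). The other lower ones were Pvalb (-1.39, SE 0.46), Mylpf (-1.15, SE 0.31) and Tnni2 (-1.04, SE 0.32), all below 2 CPM in each library. Pvalb lost its call without Acadl KO / Acadvl Het library 2 (-1.19) or without wild-type library 1 (-1.31) or 4 (-1.19). The part of flanking strain DNA and of skeletal muscle RNA in these values was not tested.

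To ask what 1 Acadvl allele adds to the Acadl KO label, Acadl KO / Acadvl Het hearts were set against Acadl KO / Acadvl wt hearts. edgeR called 0 of 15804 genes (0.0%), limma voom 0 and DESeq2 91. At an unadjusted p under 0.05 edgeR had 1396 genes. The median difference was 0.08 for the ATF4 targets, 0.02 for the synthetases, -0.03 for the NRF2 targets and -0.11 for the PPAR-alpha targets, beside -0.01 for all genes. Among the stress genes named above the difference was 0.62 for Mthfd2 (SE 0.33), -0.62 for Srxn1 (SE 0.31) and 0.58 for Hmox1 (SE 0.53), so with these errors neither a difference nor equal levels was shown.

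Against the same wild-type libraries, 19.6% of genes were higher and 17.6% lower in Acadl KO / Acadvl wt hearts. The 2 comparisons share those libraries, so their values are only set side by side. The median over the ATF4 targets was 1.45 with Acadvl Het and 1.41 with Acadvl wt, over the synthetases 0.75 and 0.70, over the NRF2 targets 0.63 and 0.77, and over the interferon genes -0.80 and -0.65. Ehhadh was 1.12 above wild type with Acadvl Het and 1.79 with Acadvl wt, Acot1 1.06 and 1.64, and Plin2, a lipid droplet coat protein, 0.93 and 1.58. Between the Acadl KO groups these genes differed by -0.67 (SE 0.14, unadjusted p = 0.0001241), -0.58 (unadjusted p = 0.0003651) and -0.65 (unadjusted p = 0.004205), none of which passed edgeR's adjustment, whereas DESeq2 called Ehhadh (adjusted p = 0.00625) and Acot1 (adjusted p = 0.0205). Cacng6 (-1.76, unadjusted p = 0.0006377) and Sbk2 (-1.35, unadjusted p = 0.0002508) were likewise lower in value with Acadvl Het without passing it, and DESeq2 called both (adjusted p = 0.00786 and 0.00279). Acta1 stood 1.35 higher (unadjusted p = 0.005503).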

How the data were processed

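Per the labels' protocols, RNA was purified with QIAzol and RNeasy columns and made into polyA-selected libraries that were sequenced as single-end reads. The authors deposited 1 file per library with unnormalized read counts by gene, for which per the file headers featureCounts 1.5.2 counted reads over exons of mm10 genes. STAR 2.5.1b and featureCounts 1.5.3 are named in the submitters' processing notes. The headers show counting without regard to strand, so a gene and an antisense partner cannot be told apart, and gene families with near copies (Acot, Gsta, Hba) are uncertain.

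All 24 libraries entered 1 edgeR 4.0.16 quasi-likelihood fit (R 4.3.3; TMM scaling, filterByExpr, genotype and RNA isolation batch as terms), with two-sided tests adjusted by Benjamini-Hochberg over 15804 genes and a threshold of 0.05. Log2 differences come from this fit with standard errors from its F statistic. Levels are CPM with TMM factors. DESeq2 1.42.0 and limma 3.58.1 (voom), other filters and scalings, each batch alone, summed libraries and each library left out were the alternatives. On counts simulated for this comparison, 76% of the 50 genes changed by a fold of 2 were recovered. Among 15649 genes, 8 of 171 calls were false. Far fewer genes were changed there than were called in the real comparison, so these shares need not carry over to it. No libraries of a genotype were alike within sampling noise.

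Libraries were numbered in accession order, which pairs nothing. Named genes are Acadl, Acadvl, the 12 largest rises and 12 largest falls among genes called, averaging 1 CPM or more and without overlap, and up to 6 called members per list. The text names fewer. Nupr1, Gars, Alb, Nppa, Myl7, Myl4, Sln, Hba-a1's level by library and genes given for the second reference group were chosen after their values were seen. The comparison and the lists were chosen with earlier results of these data known.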

Additional observations from a re-analysis of the deposited data

Results flagged for a closer look

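In 11 of the 230 groups checked (115 named genes, each in the 5 Acadl KO / Acadvl Het and the 4 wild-type libraries) 1 library lay far from the others of its group. The limit used would mark about 1 in 20 groups of independent, normally distributed values. These genes share the same libraries and many were named for their change, so the number cannot be set against chance.

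Among the Acadl KO / Acadvl Het libraries, library 1 stood apart upward for Mthfd2 (58.07 CPM against 19.8 to 30.5 CPM in the other four), Sars (205.5 CPM against 133 to 152 CPM) and Ppargc1a (1056 CPM against 234 to 377 CPM). Library 5 stood apart upward for Hba-a1 (1150 CPM against 552 to 676 CPM) and for Adra1b (23.46 CPM against 16.1 to 17.7 CPM). Library 2 stood apart upward for Nppa (1922 CPM against 131 to 343 CPM) and downward for Kcnd2 (3.928 CPM against 8.77 to 10.2 CPM). In wild type the libraries apart were library 1 for Atf4 (79.11 CPM against 64.2 to 66.4 CPM), library 3 upward for Rrp12 (70.74 CPM against 47.9 to 51.0 CPM) and downward for Pvalb (0.2061 CPM against 0.728 to 0.834 CPM) and library 2 for Itgb6 (17.91 CPM against 5.27 to 6.84 CPM). Mthfd2, Sars, Ppargc1a, Adra1b, Kcnd2, Atf4, Rrp12, Pvalb and Itgb6 kept their call when that library was left out, and Hba-a1 and Nppa had no call to lose.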

How the results depend on the processing

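Against wild type edgeR called 6960 genes for Acadl KO / Acadvl Het hearts, and 5654 to 6954 when 1 library was left out. The count was 1451 within batch 1 (2 libraries against 2) and 4544 within batch 2 (3 against 2); fewer libraries entered those fits. Each other alternative gave a count within 1.5 times. With libraries of a shared title number summed, 4895 genes were called. Of the 109 named genes called, 0 reversed, and 105 were called in every fit that left out 1 library (not Ndufb10, Acta1, Ankrd1 and Pvalb). Within batch 1 the call was lost for 27, namely Ddit4l, Nupr1, Txnrd1, Ffar4, Lox, Adora2a, Ucp2, Acad10, Ndufb10, Mut, Acadsb, Ppp1r3b, Slc2a1, Cdkn1a, Pdia4, Amica1, Mctp2, Pln, Stard10, Mx2, Per3, Dhcr7, Acta1, Plin2, Pvalb, Mylpf and Tnni2. Within batch 2 it was lost for 11, namely Adora2a, Ndufb10, Acadsb, Lrrc52, Stard10, Ifi44, Mx2, Acta1, Ankrd1, Mylpf and Tnni2, and with libraries of a shared title number summed for 4, namely Ndufb10, Slc2a1, Acta1 and Ankrd1. For Acadl KO / Acadvl wt hearts the count of 5874 was 86 within batch 1, where that arm is 1 library assumed to vary like the rest, and 4642 to 5833 with 1 library left out. Between the Acadl KO groups the count of 0 was 91 with DESeq2 and 0 to 3 with 1 library left out, and it was 0 without the libraries rich in liver RNA or Rn45s, an alternative chosen after seeing the data. Nppa, not called, was at -0.24 within batch 1 and at -0.17 to 1.44 with 1 library left out, the lowest without Acadl KO / Acadvl Het library 2. Srxn1 between the Acadl KO groups was 0.15 within batch 1, a direction that rests on 1 Acadl KO / Acadvl wt library. The cause of these shifts was not tested. On test counts with far fewer changed genes, 59.18% of genes changed by a fold of 1.5 were recovered, so small changes can be missed. No paired analysis was possible because library numbers follow accession order, no title number occurs in both Acadl KO / Acadvl Het and wild type, and only 1 (25) occurs in both Acadl KO groups.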
